A study of Homo sapiens with 9 samples.

Results

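Genes of the transforming growth factor beta (TGF-beta) pathway were followed in HepG2. These human cells are a long-used line from a liver tumour that keeps many features of hepatocytes. The 9 genes were the ligands TGFB1 and TGFB2, the receptor TGFBR1, the decoy receptor BAMBI, the inhibitory SMADs SMAD6 and SMAD7, the corepressor SKIL, and the targets PMEPA1 and TGFBI. They were selected by gene symbol on the array platform, with the transcript cluster of the highest mean signal taken for each gene. Of the 9 genes, 8 had a named cluster among the 17687 genes of the table, and each had exactly 1 cluster, whose identifier on the platform is given in brackets where the gene is described. No cluster carried the symbol TGFB2, which is not analysed here. Cells were untreated or had received recombinant SPARC, a secreted glycoprotein of the extracellular matrix, at 200 or 800 ng/ml, and RNA was taken at 24 h. Each of the 3 groups comprised 3 arrays of total RNA labelled with biotin. All groups were the same line with no other stated genotype or agent, and no vehicle is named for the untreated cells. No label states whether the arrays of a group came from separate cultures, so a p-value here reflects array-to-array spread within groups that may be technical. The RNA protocol in the labels names untreated cells and the 800 ng/ml dose, while the sample labels give both doses.

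TGF-beta ligands are secreted in a latent form and, once released, bring together a type II receptor, TGFBR2, and the type I receptor, TGFBR1, which phosphorylates SMAD2 and SMAD3. These join SMAD4 and bind short SMAD boxes in DNA. Among the genes they switch on are brakes on the pathway itself. SMAD7 and SMAD6 block the receptors, BAMBI is a receptor-like protein without a kinase domain, SKIL holds SMAD complexes in a repressed state, and PMEPA1 sequesters the receptor-activated SMADs. TGFBI is a secreted matrix protein named after its induction by TGF-beta. In liver epithelial cells TGF-beta is known for halting growth, and SPARC has been tied to TGF-beta signalling in other cell types.

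The sequences upstream of 3 of these genes are shown because the arrays of 2 groups did not overlap for each of them in at least 1 comparison below, and because each holds a motif searched for. The windows are the 250 bases before the annotated start from RefSeq on GRCh38.p14, 5′ to 3′ on the gene's strand, and for PMEPA1, which has 4 annotated starts, before the farthest upstream one. They lie at chr15:66701986-66702235 on the plus strand for SMAD6, at chr10:28677271-28677520 on the plus strand for BAMBI and at chr20:57711473-57711722 on the minus strand for PMEPA1. Capitals mark matches on either strand to the palindromic SMAD box GTCTAGAC, to the SMAD box CAGAC or to the GC-rich motif GGCGCC.
SMAD6: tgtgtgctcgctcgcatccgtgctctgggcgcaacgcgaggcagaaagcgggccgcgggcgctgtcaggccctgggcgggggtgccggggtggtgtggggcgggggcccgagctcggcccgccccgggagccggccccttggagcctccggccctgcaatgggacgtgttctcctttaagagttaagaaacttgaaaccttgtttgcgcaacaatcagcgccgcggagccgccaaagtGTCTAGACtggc
BAMBI: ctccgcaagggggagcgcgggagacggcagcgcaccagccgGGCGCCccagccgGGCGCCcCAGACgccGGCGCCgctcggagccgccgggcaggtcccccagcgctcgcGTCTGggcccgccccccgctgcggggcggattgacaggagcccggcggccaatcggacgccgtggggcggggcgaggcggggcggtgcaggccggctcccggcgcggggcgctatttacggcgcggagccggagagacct
PMEPA1: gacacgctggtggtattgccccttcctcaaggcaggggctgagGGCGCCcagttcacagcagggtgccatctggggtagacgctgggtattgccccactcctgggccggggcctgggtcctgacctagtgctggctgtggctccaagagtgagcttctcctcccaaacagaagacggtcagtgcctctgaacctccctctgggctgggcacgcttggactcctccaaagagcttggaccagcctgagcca

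All 9 genes had a window, TGFB2 included. SMAD6 held the palindrome, starting 12 bases before its start, and none of the other 8 genes did. The palindrome was found in 64 of 35116 windows of the same length, or 0.182%. CAGAC was found at 2 places in the windows of BAMBI, SMAD7 and TGFB2, at 1 in that of SKIL and at 0 in the other 5, against 38.0% of all windows. GGCGCC was found at 3 places in the window of BAMBI and at 1 in those of SKIL, PMEPA1 and TGFBI, against 16.4% of all windows. CAGAC, GTCTAGAC and GGCGCC share no overlapping letters in the printed windows. A match is a description of the letters and not a sign of a bound factor.

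The hepatocyte nature of the line showed in the signal of ALB, the main plasma protein of the liver, which lay between 12.14 and 12.46 on the log2 scale in all 9 arrays. Untreated replicate 2 stood apart, with a correlation across transcript clusters of 0.891 to 0.920 with the other arrays, which correlated with each other at 0.979 to 0.991. It is 1 of the 3 controls, so each comparison of the 8 measured genes with untreated cells is given with and without it. For further pathway genes the arrays used are stated. The mean log2 signal of 6 endothelial markers was 5.03 in that array and 4.10 to 4.43 in the other 8, that of 7 measured fibroblast and stellate cell markers was 5.28 against 4.27 to 4.55, and that of 6 blood and Kupffer cell markers was 6.90 against 6.14 to 6.39. The mean over 7 measured hepatocyte markers was 10.02 there and 10.21 to 10.39 elsewhere. Not every marker went with the mean of its list in untreated replicate 2. CD68 was at 7.15 against 7.86 to 8.13 and LYZ at 11.37 against 11.52 to 11.70, both blood and Kupffer cell markers. The hepatocyte marker TTR was at 8.11 against 7.57 to 7.77. PECAM1, CDH5, KDR, LUM, POSTN and the hepatocyte marker TF, at 10.97, lay within the range of the other arrays. Replicates 2 and 3 at 800 ng/ml also stood apart, since 8 neural and astrocyte markers averaged 6.45 and 6.51 in them and 4.19 to 4.81 in the other 7 arrays. Of these markers AQP4 was at 4.19 and 4.21 in them and at 4.26 in untreated replicate 2. The part of these differences in the results below was not tested.

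TGFB1 (TC1900010743.hg.1), the main ligand of the family, had log2 signals of 7.73, 6.67 and 7.85 in untreated replicates 1, 2 and 3. The signals were 8.12, 7.77 and 7.84 at 200 ng/ml and 7.80, 7.89 and 7.85 at 800 ng/ml. Untreated replicate 2 was the lowest array, and the groups overlapped among the other 8. The group means were 7.41 ± 0.65 (SD, n = 3), 7.91 ± 0.18 and 7.85 ± 0.05 in order of dose. The difference from untreated cells was 0.50 at 200 ng/ml, with a 95% interval of −0.13 to 1.12, and 0.43 at 800 ng/ml, with −0.19 to 1.05. Neither passed the test (limma, adjusted p = 0.966 and 0.659). Without untreated replicate 2 the differences were 0.12 and 0.06, with intervals of −0.17 to 0.42 and −0.24 to 0.35. Both directions of change remained within reach of these intervals, up to a ratio of 1.34 at 200 ng/ml and 1.28 at 800 ng/ml.

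**Figure D1:**
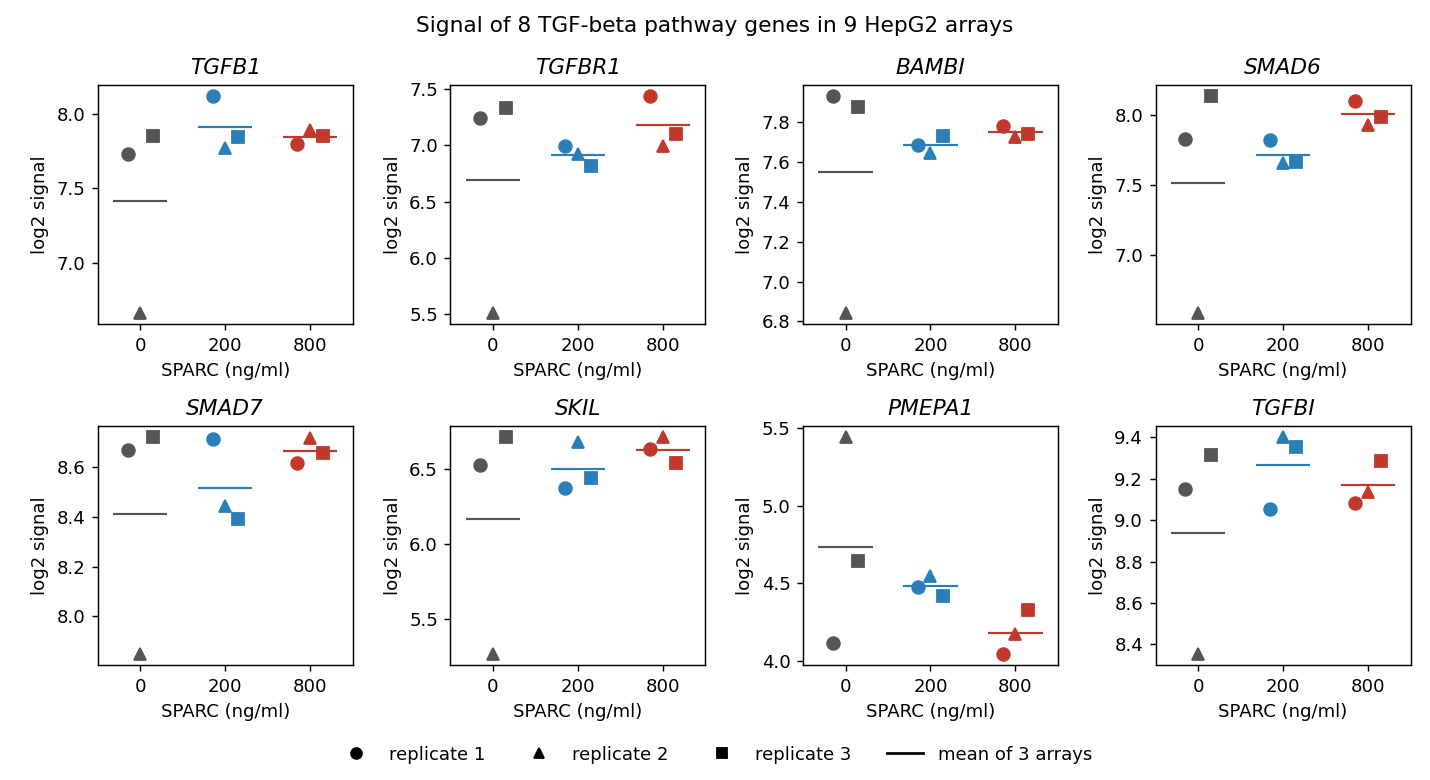
Log2 signal of each measured gene (vertical axis, own scale per panel) at 0, 200 and 800 ng/ml SPARC (horizontal axis), with 1 symbol per array, the symbol giving the replicate, and the bar giving the mean of 3 arrays. Untreated replicate 2 is the lowest array for 7 genes and the highest for PMEPA1, with 5.44.

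TGFBR1 (TC0900008202.hg.1), the type I receptor that carries the signal into the cell, had 7.24, 5.51 and 7.33 in the untreated arrays. At 200 ng/ml it had 6.99, 6.92 and 6.82, and at 800 ng/ml 7.44, 6.99 and 7.10. The arrays at 200 ng/ml all lay below untreated replicates 1 and 3 and above untreated replicate 2. With all 9 arrays the differences from untreated cells were 0.22, with an interval of −0.66 to 1.09, and 0.48, with −0.39 to 1.36 (limma, adjusted p = 0.966 and 0.659). Leaving out untreated replicate 2 turned both directions. TGFBR1 was then at −0.38 at 200 ng/ml, with an interval of −0.71 to −0.04 and a ratio of 0.771, and at −0.11 at 800 ng/ml, with −0.44 to 0.22. The value at 200 ng/ml had an unadjusted p of 0.0313 and did not pass after adjustment (limma, adjusted p = 0.405). At 800 ng/ml replicate 1 lay above the 2 arrays with high neural markers, and the spread within that group was 0.23 (SD, n = 3) against 0.09 at 200 ng/ml.

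BAMBI (TC1000007132.hg.1), the decoy receptor, had 7.93, 6.84 and 7.87 in untreated cells, 7.68, 7.64 and 7.73 at 200 ng/ml and 7.78, 7.72 and 7.74 at 800 ng/ml. It was the steadiest of the 8 genes in the treated arrays, with an SD of 0.04 at 200 ng/ml and 0.03 at 800 ng/ml. All 6 treated arrays lay below untreated replicates 1 and 3 and above untreated replicate 2. The differences from untreated cells were 0.14 and 0.20 with all 9 arrays (limma, adjusted p = 0.966 and 0.729). Without untreated replicate 2 they were −0.22, with an interval of −0.45 to 0.02, and −0.15, with −0.39 to 0.08 (limma, adjusted p = 0.467 and 0.971). The direction of the BAMBI difference therefore rested on 1 control array.

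SMAD6 (TC1500007619.hg.1) is the inhibitory SMAD best known from bone morphogenetic protein signalling. Its signals were 7.83, 6.59 and 8.14 in untreated cells. They were 7.82, 7.66 and 7.67 at 200 ng/ml and 8.10, 7.93 and 7.99 at 800 ng/ml, so every 800 ng/ml array lay above every 200 ng/ml array. Untreated replicates 1 and 3 were 0.31 apart, and the means of the 2 doses 0.29. The differences from untreated cells were 0.20 and 0.49 with all arrays (limma, adjusted p = 0.966 and 0.659) and −0.27 and 0.02 without untreated replicate 2 (adjusted p = 0.475 and 0.999).

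SMAD7 (TC1800008650.hg.1), the inhibitory SMAD that TGF-beta itself induces and that brings ubiquitin ligases to TGFBR1, had 8.67, 7.85 and 8.72 in untreated cells. It had 8.71, 8.44 and 8.39 at 200 ng/ml and 8.62, 8.72 and 8.65 at 800 ng/ml. Replicate 1 at 200 ng/ml was level with untreated replicates 1 and 3, while the other arrays of that dose were lower. The SMAD7 differences from untreated cells were 0.10 and 0.25 with all arrays (limma, adjusted p = 0.970 and 0.663). They were −0.18, with an interval of −0.47 to 0.11, and −0.03, with −0.32 to 0.26, without untreated replicate 2. The value at 200 ng/ml also turned to −0.04 after quantile normalization of all 9 arrays.

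SKIL (TC0300009471.hg.1), the corepressor also called SnoN, had 6.52, 5.26 and 6.71 in the untreated arrays, 6.37, 6.68 and 6.44 at 200 ng/ml and 6.63, 6.71 and 6.54 at 800 ng/ml. Apart from untreated replicate 2, the 3 groups overlapped. The SKIL differences were 0.33 and 0.46 with all arrays (limma, adjusted p = 0.966 and 0.659), and −0.12 and 0.01 without untreated replicate 2, with intervals of −0.42 to 0.18 and −0.29 to 0.31.

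Of the targets, PMEPA1 (TC2000009604.hg.1) had the opposite distribution. Its signals were 4.12, 5.44 and 4.64 in untreated cells, with untreated replicate 2 the highest array. They were 4.48, 4.55 and 4.42 at 200 ng/ml and 4.04, 4.18 and 4.33 at 800 ng/ml. The 800 ng/ml arrays lay below those at 200 ng/ml, and untreated replicate 1 lay within the range of the 800 ng/ml arrays. With all 9 arrays the difference from untreated cells at 800 ng/ml was −0.55, with an interval of −1.18 to 0.08 and an unadjusted p of 0.0797 (limma, adjusted p = 0.659). It was −0.20 without untreated replicate 2, with an interval of −0.57 to 0.17. At 200 ng/ml it was −0.25 with all arrays and 0.10 without that array.

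TGFBI (TC0500008736.hg.1), the matrix protein, had 9.15, 8.35 and 9.31 in untreated cells, 9.05, 9.40 and 9.35 at 200 ng/ml and 9.08, 9.14 and 9.29 at 800 ng/ml. The groups overlapped once untreated replicate 2 was set aside. Its differences were 0.33 and 0.23 with all arrays (limma, adjusted p = 0.966 and 0.685). They were 0.04, with an interval of −0.28 to 0.36, and −0.06, with −0.38 to 0.26, without untreated replicate 2.

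Counted together, none of the 8 genes passed the test against untreated cells at 200 or 800 ng/ml with all 9 arrays, and of all 17687 genes tested 0, or 0%, did so at either dose (limma, adjusted p). At an unadjusted p under 0.05 the count was 0 of 8 at both doses, beside 1.78% and 4.17% of all genes. At each dose 7 of the 8 genes were higher than in untreated cells and PMEPA1 was lower. Of all genes 54.1% were higher at 200 ng/ml and 54.6% at 800 ng/ml. With the dimmest 25% of genes left out these shares were 60.9% and 61.4%. The median difference of the 8 genes was 0.21 at 200 ng/ml and 0.34 at 800 ng/ml, against 0.03 and 0.04 over all genes tested. The groups overlapped for all 8 genes, where 6.98% of all genes at 200 ng/ml and 11.2% at 800 ng/ml had arrays that did not.

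Without untreated replicate 2 the counts changed sides. At both doses 3 of the 8 genes were higher and 5 lower, with medians of −0.15 at 200 ng/ml and −0.05 at 800 ng/ml against −0.02 and −0.01 over all genes. Of all genes 47.2% were then higher at 200 ng/ml and 48.2% at 800 ng/ml. Again 0 of 8 passed, and 0% of all genes (limma). At 200 ng/ml TGFBR1 alone had an unadjusted p under 0.05, in a fit where 11.3% of all genes had one, 6.03% with a lower signal. At 800 ng/ml 0 of 8 did, beside 5.36% of all genes. The arrays at 200 ng/ml lay below both remaining controls for TGFBR1, BAMBI and SMAD6, 3 of 8 genes, against 17.8% of all genes, and above both for 0 of 8, against 13.8%. For SMAD6 this was a near tie, with 7.82 in 200 ng/ml replicate 1 and 7.83 in untreated replicate 1. At 800 ng/ml the arrays lay below both controls for BAMBI alone, against 11.8% of all genes, and above both for 0 of 8, against 10.5%. Both doses share the untreated arrays, so a like value at both is not seen independently. At the end farther from no change, the intervals of the 8 genes reached 1.28-fold to 1.64-fold at 200 ng/ml. At 800 ng/ml they reached 1.24-fold to 1.48-fold. The other end could lie much nearer, as for TGFBR1 at 200 ng/ml, with ratios of 0.612 to 0.971. Changes beyond the farther end would lie outside the interval of a gene.

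**Figure D2:**
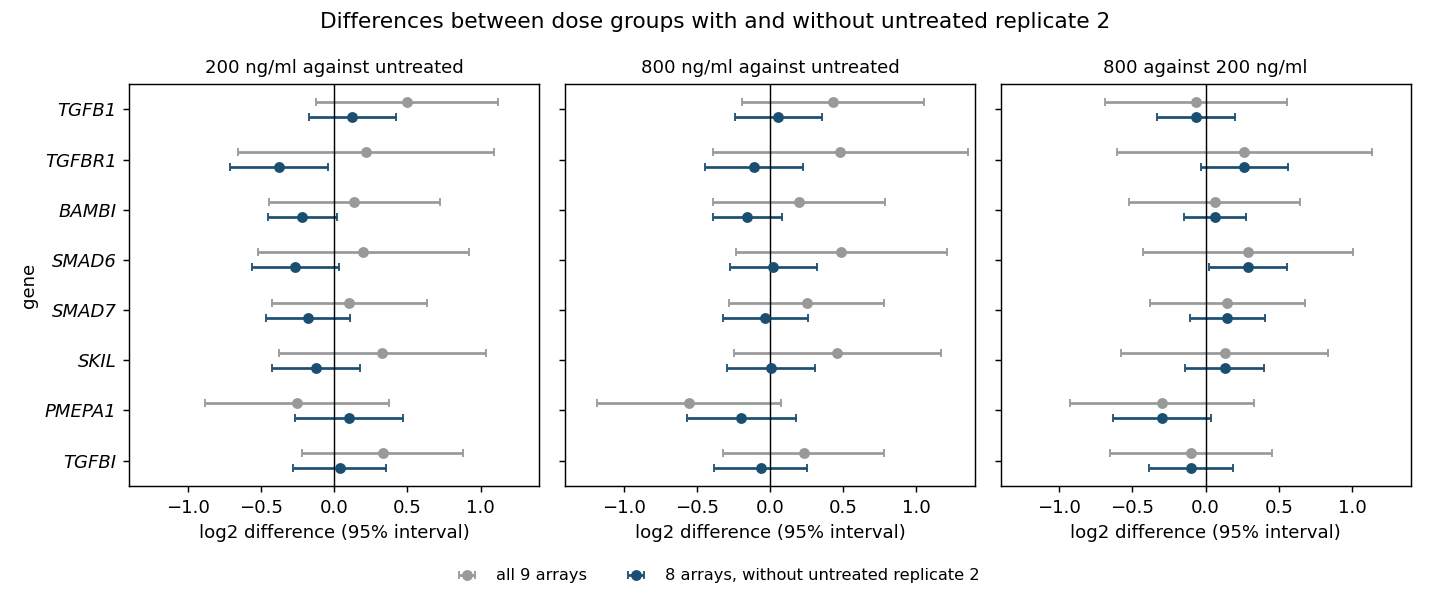
Log2 differences between groups (horizontal axis) for each gene (vertical axis) in the 3 comparisons, with points for the estimate and bars for the 95% interval of the moderated fit, in grey for all 9 arrays and in blue without untreated replicate 2. The grey intervals of all genes hold 0, and the blue ones leave it out for TGFBR1 at 200 ng/ml and for SMAD6 between the doses.

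The size of the shift in untreated replicate 2 was measured against untreated replicates 1 and 3. TGFBR1 was lower there by 1.78 on the log2 scale, a 3.43-fold difference, SMAD6 by 1.39 and SKIL by 1.35. TGFB1, BAMBI, TGFBI and SMAD7 were lower by 1.12, 1.06, 0.88 and 0.85, and PMEPA1 was higher by 1.06. Genes as a whole shifted with their signal in this array. With all genes divided into 4 equal classes of signal, the brightest class held 5 of the 8 and had a median deviation of −0.82. The next class, with TGFBR1 and SKIL, had −0.51, and the class of PMEPA1 had 0.56. Each of the 8 genes deviated in the direction of its class and by more than its median. TGFB1, TGFBR1, SMAD6, SKIL and PMEPA1 lay outside the interquartile range of their class.

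**Figure D3:**
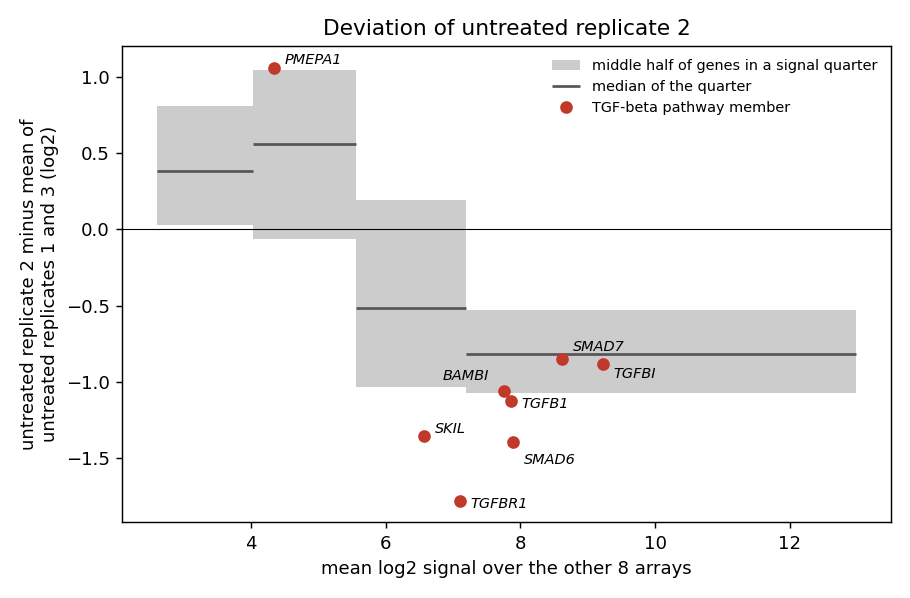
Deviation of untreated replicate 2 from the mean of untreated replicates 1 and 3 (vertical axis, log2) against the mean log2 signal over the other 8 arrays (horizontal axis). Red points are the 8 measured genes, and for each of 4 equal classes of all genes by signal the line is the median and the grey band the interquartile range. TGFBR1 lies lowest at −1.78, and the median of its class is −0.51.

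Differences between the 2 doses were read from the 6 treated arrays and do not use the controls. None of the 8 genes passed with all 9 arrays or without untreated replicate 2, beside 0% of all genes in both fits (limma, smallest adjusted p among the 8 genes 0.999 and 0.297). Untreated replicate 2 enters these values only through the shared spread. With it, 0 of 8 genes had an unadjusted p under 0.05, beside 2.41% of all genes. Without it SMAD6 had one of 0.0359, beside 15.3% of all genes, 7.68% with a higher signal. In a fit of the 6 treated arrays alone 2 of 8 genes had an unadjusted p under 0.05, beside 2481 of 17687 genes. In that fit 0 of the 8 and 0 of all genes passed after adjustment (limma).

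SMAD6 was 0.29 higher at 800 than at 200 ng/ml, a ratio of 1.22, with an interval of 0.02 to 0.56 without untreated replicate 2. SMAD6 was the gene of the 8 whose 800 ng/ml arrays all lay above those at 200 ng/ml, as did those of 12.1% of all genes. PMEPA1 was 0.30 lower, a ratio of 0.814, with an interval of −0.63 to 0.04, and its 800 ng/ml arrays all lay below, as did those of 9.72% of all genes. TGFBR1 was 0.27 higher, with an interval of −0.03 to 0.56, and its arrays at the 2 doses met at 6.99. These differences were at least as large in 800 ng/ml replicate 1, the array of that dose without high neural markers. With that array alone standing for the dose they were 0.39 for SMAD6, −0.44 for PMEPA1 and 0.53 for TGFBR1. Without that array they were 0.24, −0.23 and 0.13. Against untreated cells, in order of dose, SMAD6 was at −0.27 and 0.02 without untreated replicate 2, and at 0.20 and 0.49 with all arrays. PMEPA1 was likewise at 0.10 and −0.20, and at −0.25 and −0.55. TGFBR1 was at −0.38 and −0.11, and at 0.22 and 0.48. Without untreated replicate 2 none of these genes moved in a single direction from untreated cells through both doses.

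The other 5 genes differed less between the doses. SMAD7 was at 0.15, SKIL at 0.13 and BAMBI at 0.06, and TGFB1 and TGFBI were at −0.07 and −0.10, all with intervals that held 0. The sign of the BAMBI value turned after quantile normalization. Over the 8 genes 5 were higher and 3 lower at 800 ng/ml, with a median of 0.10 against 0.01 over all genes tested. Of all genes 52.3% were higher at 800 than at 200 ng/ml. Without untreated replicate 2 the intervals of the 8 genes reached 1.21-fold to 1.55-fold at the end farther from no change.

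Further genes of the pathway were taken from a list of 63, of which 59 were measured. None passed the test in any of the 3 comparisons, with all 9 arrays or without untreated replicate 2 (limma). With all arrays 38 of 59 were higher at 200 ng/ml and 39 at 800 ng/ml, beside 54.1% and 54.6% of all genes. The medians were 0.11 and 0.16 against 0.03 and 0.04 over all genes. Without untreated replicate 2 the counts were 23 and 26 of 59, beside 47.2% and 48.2% of all genes. The medians were then −0.04 and −0.03 against −0.02 and −0.01. The number with an unadjusted p under 0.05 was then 6 at 200 ng/ml, 1 at 800 ng/ml and 2 between the doses, beside 11.3%, 5.36% and 15.3% of all genes. With all arrays that number was 1, 1 and 0, beside 1.78%, 4.17% and 2.41% of all genes. In the fit of the 6 treated arrays alone it was 3 between the doses, beside 2481 of 17687 genes. The pooled count of higher genes turned with untreated replicate 2, and not every role did. At 200 ng/ml 9 of 10 ligands were lower with all arrays and 8 of 10 without untreated replicate 2, and at 800 ng/ml 8 and 9 of 10 were. Genes of latency and activation were higher in 6 and then 8 of 10 at 200 ng/ml and in 5 and then 8 of 10 at 800 ng/ml. Intracellular modulators were higher in 10 of 10 at both doses with all arrays, and in 5 and 7 of 10 without untreated replicate 2. For each role the shares of all genes are those given above. Both doses share the untreated arrays, so a like direction at both is not seen independently. The part of signal level in the counts by role was not tested.

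By role, the partner receptor TGFBR2 was at −0.22 ± 0.11 (SE) at 200 ng/ml and −0.04 ± 0.11 at 800 ng/ml without untreated replicate 2. The signal-carrying SMAD2, SMAD3 and their partner SMAD4 were at −0.24, −0.13 and −0.12 at 200 ng/ml and at −0.04, −0.07 and 0.03 at 800 ng/ml. All 6 SMAD transducers measured were lower at 200 ng/ml in that fit, where 4 of 6 were higher with all arrays. Of all genes 47.2% were higher at 200 ng/ml in that fit and 54.1% with all arrays. With all arrays TGFBR2 was at 0.11 and 0.29, in order of dose. SMAD2 was likewise at 0.07 and 0.26, SMAD3 at 0.36 and 0.42 and SMAD4 at 0.17 and 0.32. Values of the genes named below are without untreated replicate 2 unless stated. Of the ligands, INHBA, which encodes a subunit of activins, was lowest at 800 ng/ml with −0.42 ± 0.24, and BMP6, a bone morphogenetic protein that the liver uses in iron balance, highest with 0.14 ± 0.22. With all arrays INHBA was at −0.70 there (limma, unadjusted p = 0.0344, adjusted p = 0.659) and BMP6 at −0.20. Among genes of latency and activation, ITGB8, an integrin subunit that frees latent TGF-beta, was at 0.69 ± 0.37, with 4.29 in 800 ng/ml replicate 3 against 2.51 to 2.93 in the other 8 arrays. ITGB6 had the lowest value of that role, −0.11 ± 0.17.

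SMURF1, a ubiquitin ligase that degrades SMADs and receptors, was at 0.16 ± 0.13 and TGIF2, a SMAD corepressor, at −0.16 ± 0.12, the extremes of the intracellular modulators. ACVR1, a type I receptor of activins and bone morphogenetic proteins, was at −0.22 ± 0.20 and ACVR1B, the activin type I receptor, at 0.14 ± 0.19. SMAD9, a SMAD of the bone morphogenetic protein branch, had the lowest value of its role, −0.21 ± 0.13. With all arrays TGIF2 turned to 0.39 and ACVR1 to 0.27 at 800 ng/ml, while SMURF1, ACVR1B and SMAD9 kept their direction. Of 14 further direct targets, SNAI2, a repressor of epithelial genes, was lowest at −0.32 ± 0.31, and CDKN2B, the cell cycle inhibitor through which TGF-beta halts growth, highest at 0.27 ± 0.15. With all arrays SNAI2 was at −0.45 at 800 ng/ml and at −0.65 at 200 ng/ml, the latter with an unadjusted p of 0.0489 (limma, adjusted p = 0.966). Without untreated replicate 2 CDKN2B was 0.41 ± 0.15 higher at 200 ng/ml (limma, unadjusted p = 0.0213, adjusted p = 0.377). With all arrays it was at 0.02 there and at −0.11 at 800 ng/ml. It was 1 of 6 listed genes with an unadjusted p under 0.05 at 200 ng/ml without untreated replicate 2, 3 higher and 3 lower. The others were chosen after their values were seen. Higher were LTBP4 at 0.37 and the receptor ACVRL1 at 0.60. Lower were the receptor ACVR2A at −0.40 and the ligands INHBE at −0.45 and TGFB3 at −0.46. Chosen after their values were seen, ACVR2A and ACVRL1, both receptors of the family, were the 2 listed genes with an unadjusted p under 0.05 between the doses, at 0.30 ± 0.10 and −0.55 ± 0.18. LTBP4, which binds latent TGF-beta and was likewise chosen after its values were seen, was the 1 listed gene with such a p at 800 ng/ml without untreated replicate 2. It had 3.75, 3.74 and 3.63 in untreated cells, 3.99 to 4.19 over the 3 arrays at 200 ng/ml and 4.08, 4.06 and 3.85 at 800 ng/ml. All 6 treated arrays of LTBP4 lay above all 3 controls. Arrays all above the controls were found for 693 of 17687 genes at 200 ng/ml and for 1076 at 800 ng/ml. The share of genes above at both doses was not computed. The mean signal of LTBP4 lay in the dimmest class of genes by signal, which reached up to 4.03. The LTBP4 differences were 0.35 and 0.29 with all arrays (limma, adjusted p = 0.966 and 0.659) and 0.37 and 0.31 without untreated replicate 2 (unadjusted p = 0.0173 and 0.0379, adjusted p = 0.357 and 0.912).

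**Figure D4:**
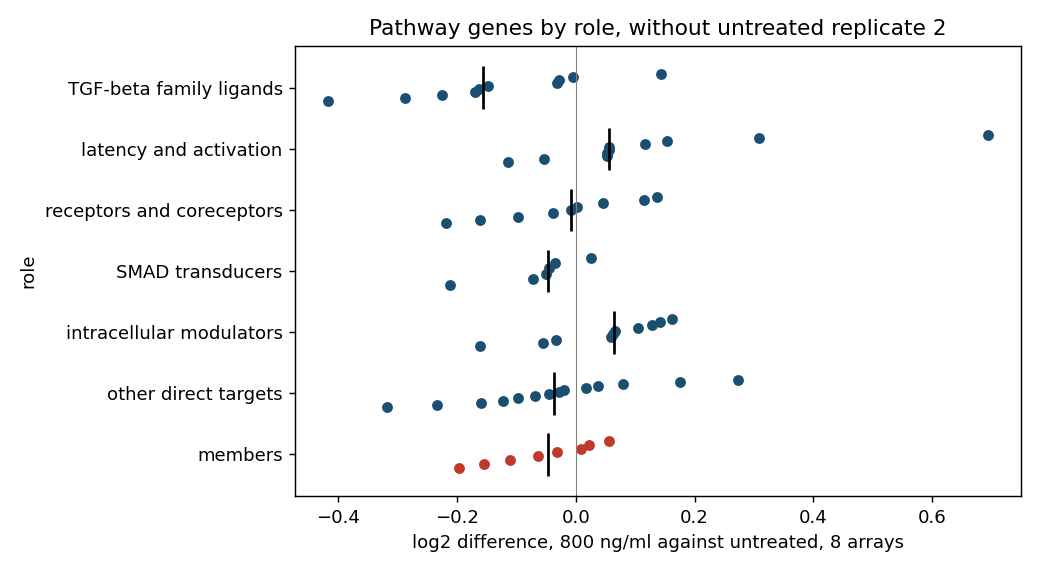
Log2 difference of 800 ng/ml against untreated cells without untreated replicate 2 (horizontal axis) for 59 listed pathway genes in 6 roles and, in red, the 8 genes followed here (vertical axis), with 1 point per gene and a black bar at the median of the role. Points lie on both sides of 0 in every role, and the most distant is ITGB8 at 0.69.

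Over the 8 arrays other than untreated replicate 2, PMEPA1 and TGFBR1 varied most among the 8 genes, each with an SD of 0.21, and BAMBI least, with 0.10. The genes with the profile nearest to that of TGFBR1, by root mean square distance between profiles centred over these 8 arrays, were IFRD1, ZMAT2 and CCDC126 at 0.054, 0.055 and 0.059. There were 90 of 17686 genes within 0.1. IFRD1 had its lowest value, 8.15, in replicate 3 at 200 ng/ml and its highest, 8.79, in replicate 1 at 800 ng/ml, as TGFBR1 did. Nearest to PMEPA1 were KIAA1549L, CELF3 and NIBAN2 at 0.065, 0.066 and 0.073, with 17 genes within 0.1. The distances are a description only.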

How the data were processed

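The authors deposited 1 table of log2 signals per transcript cluster and array. Its log2 scale was taken from the range of the values. R 3.0 is named per the submitters' processing notes, while for normalization, background correction and filters the method is not given in the sources used here. The table holds no detection calls, so low signals are reported only as signals, and precision is limited by the number of arrays, 3 per group. Of 21448 clusters, 17709 had 1 platform gene symbol and 3739 none. The cluster with the highest mean was kept per gene, leaving 17687 genes.

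One linear model over the 9 arrays was fitted (limma 3.58.1, R 4.3.3), and p-values were adjusted over all genes (Benjamini-Hochberg, 0.05). Intervals are 95% intervals of the moderated fit. The calls and the median estimates were checked on simulated data whose spread was taken without untreated replicate 2. Those data held no outlying array, and the coverage of the intervals was not checked. The members and lists were chosen with earlier results of these data known. Named genes were the 9 members, and of the pathway list the genes with the largest and smallest difference per role at 800 ng/ml without untreated replicate 2, TGFBR2, SMAD2, SMAD3 and SMAD4. ACVR2A, ACVRL1, LTBP4, INHBE and TGFB3 were named after their values were seen. The 3 nearest profiles were named for the 2 most variable members. Alternatives were quantile normalization, median centring, a filter on dim genes, the mean of all clusters, another prior, fewer arrays and the replicate number as a block.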

Additional observations from a re-analysis of the deposited data

How the results depend on the processing

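No alternative brought any of the 8 genes or the 59 listed pathway genes past the adjusted threshold. Median centring and 800 ng/ml replicate 1 as the lone array of its dose kept the direction of all 24 differences. In the lone-array setting only the differences that use 800 ng/ml could change. Leaving out the dimmest 25% of genes, a trended robust prior, the 6 arrays compared alone and the replicate block left group means unchanged. So did the mean of all clusters, because each of the 8 genes had 1 cluster. The directions could not turn in these settings, which therefore do not test them. With the replicate block 0 genes were called in each comparison. Same-numbered arrays did not deviate together (r between −0.25 and 0.11), so the numbers are not taken as pairs. Over all genes, the fit without 800 ng/ml replicate 1 called 12 against untreated cells and 15 between the doses, none of them among the 8 or the 59, and the fits without any other single array called 0.

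Quantile normalization of the 9 arrays turned SMAD7 at 200 ng/ml to −0.037 and BAMBI between the doses to −0.0045. Quantile normalization without untreated replicate 2 gave, at 200 ng/ml against untreated, TGFBR1 −0.31, BAMBI −0.14, SMAD6 −0.19, SMAD7 −0.12, SKIL −0.062 and PMEPA1 0.0078, at 800 ng/ml TGFBR1 −0.11, BAMBI −0.14, SMAD7 −0.025 and TGFBI −0.060, and between the doses BAMBI −0.0043, all opposite to the values with all arrays. The cause of these turns was not tested. In the same setting the interval of TGFBR1 at 200 ng/ml was −0.64 to 0.02 (limma, unadjusted p = 0.0606). That of SMAD6 between the doses was −0.04 to 0.49 (limma, unadjusted p = 0.0868). Both then held 0, unlike in the fit without untreated replicate 2 on the values as deposited.

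Leaving out each array in turn gave ranges that crossed 0 for 11 differences. At 200 ng/ml against untreated they ran from −0.38 to 0.53 for TGFBR1, −0.22 to 0.33 for BAMBI, −0.27 to 0.51 for SMAD6, −0.18 to 0.26 for SMAD7, −0.12 to 0.60 for SKIL and −0.56 to 0.10 for PMEPA1. At 800 ng/ml they ran from −0.11 to 0.80 for TGFBR1, −0.15 to 0.39 for BAMBI, −0.031 to 0.41 for SMAD7 and −0.063 to 0.42 for TGFBI. For these 10 the sign turned only without untreated replicate 2. Between the doses TGFB1 ran from −0.14 to 0.037, with the sign turned without 200 ng/ml replicate 1.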
